A study of Mus musculus with 8 samples.

Results

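The enzymes that make serine and carry its carbon into the folate pool were followed in CD4 T cells sorted as T follicular helper (TFH) cells or as naive cells. The 8 members are Phgdh, Psat1, Psph, Shmt1, Shmt2, Mthfd1, Mthfd2 and Mthfd1l, taken as a list of symbols, and all 8 were found among the 14042 genes of each deposited table. The study sequenced RNA of 8 mouse samples, which its labels place in 4 groups of 2. Naive WT and naive KO are flow-sorted CD62L high, CD44 low CD4 cells from wild-type mice or from mice of genotype C5aR1-/-, which lack a receptor for the complement fragment C5a. TFH WT and TFH KO are CXCR5 positive, PD1 high CD4 cells of donor origin, recovered on day 7 from the spleen of (bxd)F1 hosts. The hosts had been injected with splenocytes from which CD8 cells had been removed, of either donor genotype. Every TFH-labelled library thus comes from transferred cells in an F1 host, and no naive-labelled library does, so transfer and sort pattern cannot be told apart. Host genotype is the same for both donor genotypes, and neither the strain of the donors nor the age or number of the mice is given in the sources used here.

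Serine is built from a glycolytic intermediate by Phgdh, which oxidises it, Psat1, which adds the amino group from glutamate, and Psph, which removes the phosphate. Shmt1 in the cytosol and Shmt2 in mitochondria then split serine into glycine and a one-carbon unit bound to tetrahydrofolate. In mitochondria Mthfd2 oxidises that unit and Mthfd1l releases it as formate, which Mthfd1 in the cytosol takes up for the synthesis of purines and thymidylate. Dividing T cells are known to draw on this route for nucleotides, and the transcription factor Atf4 is a known activator of several of its genes.

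The deposited log2 values had nearly the same distribution in every library, though their normalization is not given. Levels are these values, on whose scale a difference of 1 is a 2-fold difference. The sequencing depth is unknown. Since it is not stated whether they are scaled by transcript length, levels are compared between groups for 1 gene and not between genes. The 7 measured T cell markers lay between 13.75 and 16.02 in every library. Il21, the typical TFH cytokine, was 9.58 to 10.40 in TFH-labelled and 7.31 to 8.19 in naive-labelled libraries, while Cxcr5, a sort marker, was 10.85 to 11.56 and 11.56 to 12.45. Of the 8 TFH markers 4 rose and 1 fell in TFH-labelled libraries. Markers of other cells had values in all libraries. The lowest deposited value of any gene is 1.16, so a value above 0 does not by itself show presence. The summed log2 level of 9 B cell genes was 71.98 and 91.90 in TFH WT, 71.38 and 105.28 in TFH KO, and 79.94 to 92.30 in the naive groups. The sum of 10 myeloid genes was 109.86 in naive WT replicate 1, 93.42 to 95.25 in the other naive libraries and 69.39 to 91.46 in TFH-labelled libraries. That of 8 CD8 T and NK cell genes was 76.40 to 79.67 in naive and 62.51 to 73.60 in TFH-labelled libraries. Naive KO replicate 1 had the female-expressed Xist at 14.61, against 4.44 to 5.56 in the other 7 libraries. The Y chromosome gene Ddx3y was 5.67 there and 12.54 to 13.16 in the other 7. By these 2 genes that library differs in sex from the rest, so comparisons that use naive KO include a difference of sex. Groups are called by their labels, and results that change without one of these libraries are given with and without it.

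**Figure D1:**
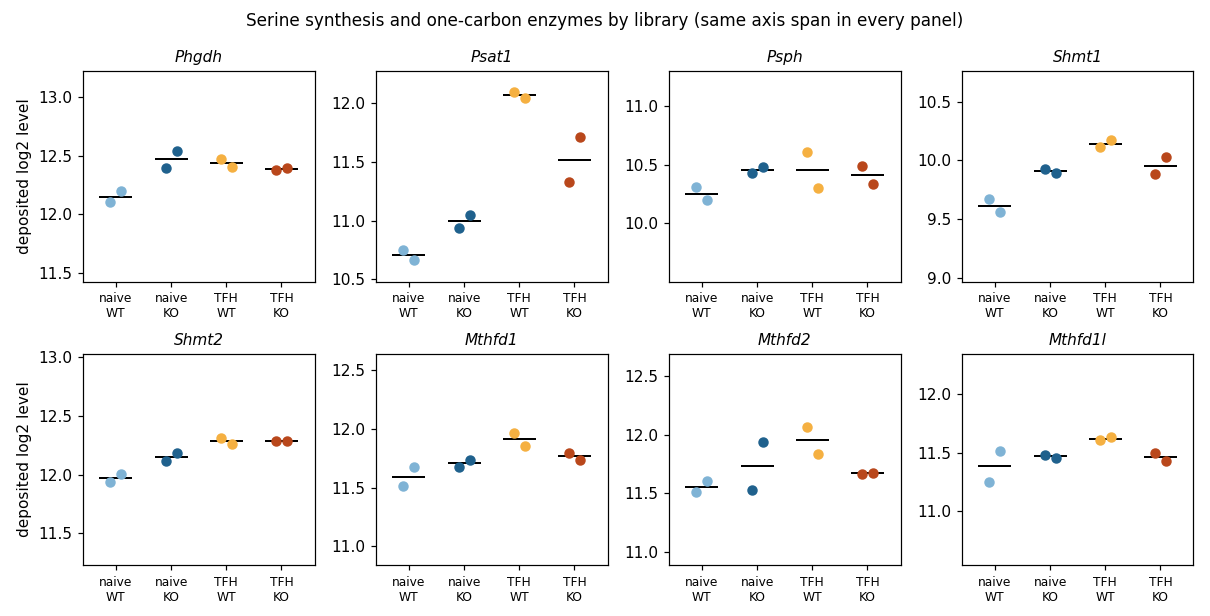
Deposited log2 level of each enzyme gene (vertical axis, the same span in every panel) in the 4 groups (horizontal axis). Points are the 2 libraries of a group and bars their mean; Psat1 spans 10.66 to 12.09, more than any other member.

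Psat1 had the widest range of the 8 genes. Its level was 10.75 and 10.66 in the naive WT libraries, 10.94 and 11.05 in naive KO, 12.09 and 12.05 in TFH WT and 11.33 and 11.71 in TFH KO. No 2 groups overlapped, and the order from high to low was TFH WT, TFH KO, naive KO, naive WT. The replicates of TFH KO lay further apart than those of any other group.

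The remaining genes of serine synthesis moved within a narrower band. Phgdh, the first enzyme, was 12.10 and 12.20 in naive WT, 12.39 and 12.54 in naive KO, 12.47 and 12.40 in TFH WT and 12.38 and 12.39 in TFH KO. Naive WT was below all other libraries, and naive KO overlapped both TFH-labelled groups. Psph, the last enzyme, was 10.31 and 10.20 in naive WT, 10.43 and 10.48 in naive KO, 10.61 and 10.30 in TFH WT and 10.49 and 10.33 in TFH KO. The TFH WT libraries of Psph stood apart and overlapped every other group.

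Of the serine hydroxymethyltransferases, Shmt1 was 9.67 and 9.56 in naive WT, 9.93 and 9.89 in naive KO, 10.11 and 10.17 in TFH WT and 9.88 and 10.02 in TFH KO. Naive WT was the lowest group and TFH WT the highest, while naive KO and TFH KO overlapped. Shmt2 was 11.94 and 12.00 in naive WT, 12.12 and 12.19 in naive KO, 12.32 and 12.26 in TFH WT and 12.29 and 12.29 in TFH KO. Both TFH-labelled groups were above both naive groups for Shmt2 and overlapped each other.

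The folate enzymes gave a similar band. Mthfd1 was 11.51 and 11.67 in naive WT, 11.68 and 11.73 in naive KO, 11.97 and 11.86 in TFH WT and 11.79 and 11.74 in TFH KO, with the groups adjoining but not overlapping. Mthfd2 was 11.51 and 11.60 in naive WT, 11.53 and 11.94 in naive KO, 12.06 and 11.84 in TFH WT and 11.67 and 11.67 in TFH KO. The naive KO replicates of Mthfd2 stood apart and overlapped every other group. Mthfd1l was 11.25 and 11.51 in naive WT, 11.48 and 11.46 in naive KO, 11.61 and 11.63 in TFH WT and 11.50 and 11.43 in TFH KO. For Mthfd1l only TFH WT stood clear, above the other 6 libraries.

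In WT, Psat1, Shmt1, Shmt2 and Mthfd1 were higher in TFH-labelled than in naive cells, and the other 4 enzyme genes did not pass the threshold. Psat1 rose by 1.37 ± 0.13 (log2 difference ± SE, n = 2 libraries per group), a 2.58-fold difference, with an adjusted p of 2.46e-05 by limma. The cytosolic Shmt1 rose by 0.53 ± 0.13 (limma adjusted p = 0.00963), its mitochondrial counterpart Shmt2 by 0.31 ± 0.09 (0.0278) and the cytosolic Mthfd1 by 0.32 ± 0.10 (0.0375). Not called were Mthfd2 at 0.39 ± 0.14 (limma adjusted p = 0.0518), Phgdh at 0.29 ± 0.10 (0.0535), Mthfd1l at 0.23 ± 0.11 (0.137) and Psph at 0.20 ± 0.13 (0.298). Thus 4 of 8 members were called, all higher, where 26.3% of all genes were called and 12.6% were called higher. The median difference was 0.32 over the members and 0.01 over all genes, and 7 of 8 members had both TFH WT libraries above both naive WT libraries, as had 33.1% of all genes. In sorted bulk cells, a change in the share of cells that express a gene and a change in RNA per cell cannot be told apart. Of the genes not called, Mthfd2 was called in 6 and Phgdh in 5 of 16 alternative analyses, and 6 members were called with the level filter, with library weights or with the B cell term. Psat1 was called in all 16, at 1.33 to 1.41. Shmt1 was not called without naive WT replicate 2 (0.47, limma adjusted p = 0.0603) or TFH WT replicate 2 (0.50, 0.0745). Shmt2 was called in 10 of the 16 and lost its call without any 1 of the 4 WT libraries (0.28 to 0.35, limma adjusted p = 0.0727 to 0.155). Mthfd1 was called in 11 and lost its call without naive WT replicate 1 (0.24, limma adjusted p = 0.211), TFH WT replicate 1 (0.26, 0.219) or TFH WT replicate 2 (0.37, 0.0856).

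In KO, Psat1 was the only member that differed between TFH-labelled and naive cells past the threshold. It rose by 0.52 ± 0.13, a 1.44-fold difference (n = 2 libraries per group, limma adjusted p = 0.0134). The other 7 members lay between -0.08 for Phgdh and 0.13 for Shmt2, and their adjusted p by limma ran from 0.362 to 0.967. For Shmt1 the 95% interval of the difference was -0.23 to 0.32, for Mthfd1 -0.16 to 0.28 and for Mthfd2 -0.36 to 0.23. So 1 of 8 members was called, where 19.5% of all genes were called and 9.12% were called higher. The median over the members was 0.02 against -0.01 over all genes, and 3 members (Psat1, Shmt2 and Mthfd1) had both TFH KO libraries above both naive KO libraries, as had 27.6% of all genes. The Psat1 call rested on few libraries. It was lost without naive KO replicate 1, the library with Xist (0.47, limma adjusted p = 0.0699), and without TFH KO replicate 2, the library with the highest B cell sum (0.33, limma adjusted p = 0.136). With the summed B cell level added as a model term, chosen after seeing the data, it was kept (0.53, limma adjusted p = 0.00655).

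**Figure D2:**
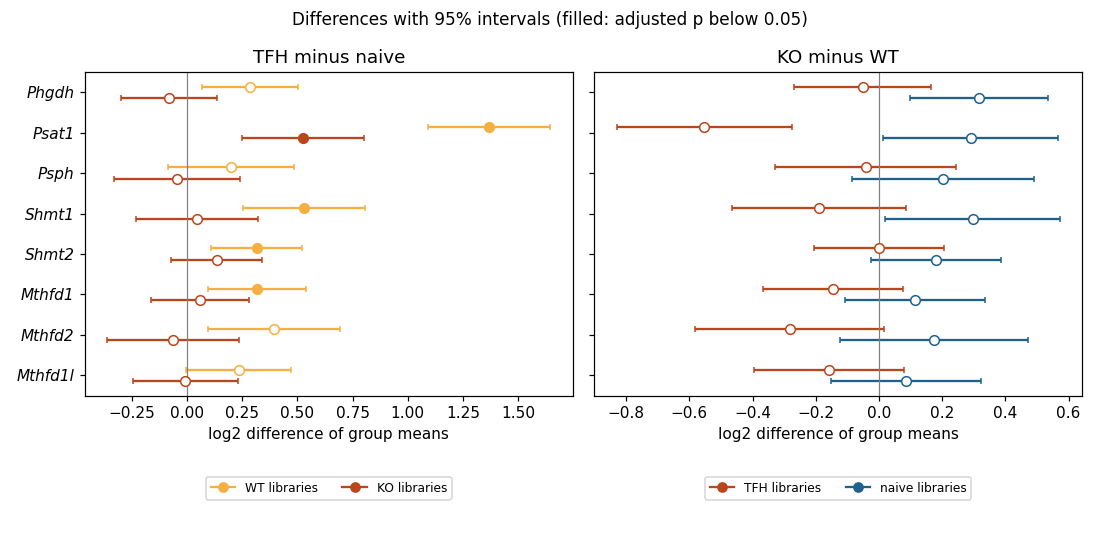
Log2 difference of group means (horizontal axis) with its 95% interval for each enzyme gene (vertical axis), TFH minus naive on the left for WT and KO libraries and KO minus WT on the right for TFH and naive libraries. Filled points passed an adjusted p of 0.05; 4 WT points and 1 KO point on the left did, and no point on the right.

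Averaged over the genotypes, 3 of 8 members were called, all higher in TFH-labelled libraries, where 38.1% of all genes were called and 18.3% were called higher. Psat1 rose by 0.95 ± 0.09 (n = 4 against 4 libraries, limma adjusted p = 1.19e-05), Shmt1 by 0.29 ± 0.09 (0.0244) and Shmt2 by 0.22 ± 0.07 (0.0189). Mthfd1 at 0.19 ± 0.07 (limma adjusted p = 0.0571) was just outside the threshold. Psat1, Shmt2 and Mthfd1 had all 4 TFH-labelled libraries above all 4 naive libraries, as had 18.2% of all genes. Psat1 was called in all 15 alternatives of this comparison, Shmt2 in 11 and Shmt1 in 9. The number of members called was 1 without TFH WT replicate 1.

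The promoters shown are those of the 4 genes called in WT, though the members not called there had positive differences too. Each is the 250 bases before the first transcription start in RefSeq on GRCm38.p6, the build that the mm10 name stands for, read 5′ to 3′ on the strand of the gene. The windows are chr19:15925060-15925309 (minus strand) for Psat1, chr11:60811266-60811515 (minus) for Shmt1, chr10:127522445-127522694 (minus) for Shmt2 and chr12:76254982-76255231 (plus) for Mthfd1. Capitals mark matches to the searched motifs, CCAAT or its reverse complement in Psat1, Shmt1 and Mthfd1 and an NRF1-type match in Shmt2.
Psat1: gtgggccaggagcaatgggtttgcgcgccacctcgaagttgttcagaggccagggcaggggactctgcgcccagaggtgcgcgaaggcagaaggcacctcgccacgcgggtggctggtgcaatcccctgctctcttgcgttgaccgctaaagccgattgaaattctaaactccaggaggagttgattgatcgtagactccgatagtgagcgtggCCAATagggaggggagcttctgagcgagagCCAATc
Shmt1: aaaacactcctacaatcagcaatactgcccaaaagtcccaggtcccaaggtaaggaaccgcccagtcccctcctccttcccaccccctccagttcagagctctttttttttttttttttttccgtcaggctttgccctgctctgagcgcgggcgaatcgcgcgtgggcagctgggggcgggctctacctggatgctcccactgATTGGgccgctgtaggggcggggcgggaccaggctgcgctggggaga
Shmt2: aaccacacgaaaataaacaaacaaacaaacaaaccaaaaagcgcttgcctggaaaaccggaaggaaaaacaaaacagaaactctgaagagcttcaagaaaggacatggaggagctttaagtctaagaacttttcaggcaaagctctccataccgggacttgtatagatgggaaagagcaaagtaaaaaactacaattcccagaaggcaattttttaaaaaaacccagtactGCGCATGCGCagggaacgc
Mthfd1: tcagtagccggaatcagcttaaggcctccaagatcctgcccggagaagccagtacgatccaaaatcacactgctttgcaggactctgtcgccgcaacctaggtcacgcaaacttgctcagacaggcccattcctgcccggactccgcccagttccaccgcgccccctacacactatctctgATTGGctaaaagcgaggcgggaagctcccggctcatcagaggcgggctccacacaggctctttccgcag

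The motifs searched on both strands were CCAAT, the CARE core TGATGNAA that binds Atf4 with C/EBP factors, the E-box CACGTG that binds Myc, and a form of the NRF1 site, GCGCA, then any base, then GCGC. No match overlapped another. CCAAT was found in the windows of 6 of 8 members, all but Shmt2 and Mthfd1l, and in 33.8% of all 32851 promoter windows of the same length. In Psat1 it lies 36 and 6 bases before the start, and Shmt1 and Mthfd1 have a single reversed copy at 47 and 69 bases. The NRF1 form was found in Shmt2 alone, 19 bases before the start, and in 3.74% of all windows. The letters of the CARE core and of the E-box were in none of the 8 windows, against 3.45% and 6.02% of all windows. Psat1 has another listed start, whose window held none of the 4 motifs. These are matches of letters in short windows, with no binding measured.

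By position in GENCODE vM21 on GRCm38, Psat1 spans chr19:15904678-15947337, Shmt1 chr11:60788104-60811718, Shmt2 chr10:127517123-127522444 and Mthfd1 chr12:76255298-76319803. Phgdh spans chr3:98313170-98339990, Psph chr5:129765558-129787449, Mthfd2 chr6:83305691-83325908 and Mthfd1l chr10:3973118-4167081. The RefSeq windows searched for Psat1, Shmt1 and Mthfd2 lie inside these spans, and those of Psph and Phgdh do in part. GENCODE thus places an end of these genes further upstream, and the bases before it were not searched as windows of their own. On the opposite strand Cct6a overlaps Psph, Smcr8 overlaps Shmt1 and Ndufa4l2 overlaps Shmt2, and Phgdh has a processed pseudogene on chromosome 7. Predicted genes overlap Psat1, Shmt1 and Mthfd1 on the opposite strand. Others overlap Mthfd2 and Mthfd1l on the same strand, where assignment by strand would not separate them. Whether reads were assigned by strand is not stated, so reads of overlapping genes may not be separated. In WT, TFH minus naive was -0.33 ± 0.13 for Smcr8 (limma adjusted p = 0.0928), against 0.53 for Shmt1. It was 0.08 for Cct6a, against 0.20 for Psph, and the Cct6a difference had the sign of Psph in KO too, at -0.18 against -0.05.

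Among TFH-labelled libraries, Psat1 was lower in KO than in WT by 0.55 on the log2 scale, and no member passed the threshold. The difference was -0.55 ± 0.13 (n = 2 libraries per group, unadjusted p = 0.000992, limma adjusted p = 1), with a 95% interval from -0.83 to -0.28. Mthfd2 was at -0.28 ± 0.14, Shmt1 at -0.19 ± 0.13, Mthfd1l at -0.16 ± 0.11 and Mthfd1 at -0.15 ± 0.10. Phgdh at -0.05 ± 0.10, Psph at -0.04 ± 0.13 and Shmt2 at 0.00 ± 0.09 were near 0. By limma 0 of 14042 genes were called here (0%), and 506 had an unadjusted p below 0.05 (3.6%), among them 1 member, Psat1. In the fit to the compared groups only, 1 gene was called, and it was not a member. All these fits treated the libraries as unpaired, so any pairing across genotypes would count as spread. For 6 of 8 members both KO libraries lay below both WT libraries, as for 16.5% of all genes, and the median difference was -0.15 over the members and 0.00 over all genes.

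The Psat1 difference varied with the TFH KO libraries. It was -0.36 without replicate 1 (limma adjusted p = 0.986) and -0.74 without replicate 2 (limma adjusted p = 0.166). Replicate 1 also had a lower sum of 15 cell cycle genes, 171.35, against 181.96 in replicate 2 and 181.18 and 183.99 in TFH WT. Its sum of 8 TFH markers was 86.33, against 88.68 in replicate 2 and 91.29 and 89.79 in TFH WT. Its sum of 6 naive CD4 markers was 88.14, against 86.42 in replicate 2, 86.30 and 85.85 in TFH WT and 87.69 to 89.66 in naive libraries. The part of these genes and of B cell genes in the Psat1 difference was not tested beyond these values and the B cell covariate fit. In that fit the Psat1 difference was -0.60 ± 0.11 (limma adjusted p = 0.352).

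Among naive libraries all 8 members were higher on average in naive KO than in naive WT, with a median of 0.19 against 0.01 over all genes, and none was called by limma. Phgdh was at 0.32 ± 0.10 (n = 2 libraries per group, unadjusted p = 0.00834), Shmt1 at 0.30 ± 0.13 (0.0375) and Psat1 at 0.29 ± 0.13 (0.041), each with a limma adjusted p of 1.0 after rounding. The other 5 ran from 0.09 for Mthfd1l to 0.20 for Psph. Naive KO replicate 1, the library with high Xist and low Ddx3y, is 1 of the 2 naive KO libraries, so this comparison mixes sex with genotype. With a library left out the difference was 0.24 to 0.39 for Phgdh, 0.24 to 0.35 for Shmt1 and 0.23 to 0.35 for Psat1. Over all genes limma called 10 (0.0712%), and 2.53% had an unadjusted p below 0.05. For 6 of 8 members both naive KO libraries lay above both naive WT libraries, as for 15.2% of all genes. The sum of the 15 cell cycle genes was 167.80 and 162.75 in naive WT and 167.46 and 170.34 in naive KO, and its part in these differences was not tested.

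The interaction asks whether the difference between TFH-labelled and naive cells depended on genotype. It was negative for all 8 members, that is, the difference was lower in KO than in WT, with a median of -0.31 against -0.01 over all genes, and none was called. Psat1 was at -0.84 ± 0.18 (2 libraries in each of the 4 groups, unadjusted p = 0.000554, limma adjusted p = 0.518). Shmt1 at -0.49 ± 0.18, Mthfd2 at -0.46 ± 0.19 and Phgdh at -0.37 ± 0.14 had unadjusted p-values of 0.019, 0.0355 and 0.0233. Limma called 2 of 14042 genes (0.0142%), and 4.37% had an unadjusted p below 0.05. A call in WT and its absence in KO are therefore not shown to differ for any member. Psat1, Shmt1, Phgdh and Mthfd1 had KO above WT among naive and below WT among TFH-labelled libraries without overlap, as had 3.2% of all genes. Without TFH KO replicate 2 the Psat1 interaction was -1.03 (limma adjusted p = 0.0958), and without TFH KO replicate 1 it was -0.65 (0.902).

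No shift between mitochondrial and cytosolic enzymes passed the threshold. A pair that shifted alone could not have passed it, so this result does not show that they moved alike. The log2 difference Shmt2 minus Shmt1 within a library was 2.09 to 2.41 in TFH-labelled and 2.19 to 2.45 in naive libraries, a shift of -0.06 (exact permutation test, two-sided p = 0.486, n = 4 against 4). For Mthfd1l minus Mthfd1 the ranges were -0.36 to -0.22 and -0.28 to -0.16, a shift of -0.08 (exact permutation p = 0.114, n = 4 against 4). For Mthfd2 minus Mthfd1 they were -0.13 to 0.10 and -0.15 to 0.20, a shift of -0.02 (exact permutation p = 0.829, n = 4 against 4). Adjusted over the 3 pairs the p-values were 0.729, 0.343 and 0.829, and the smallest unadjusted p this design allows is 0.0286. If only a single pair had that smallest p, it would still miss the threshold after adjustment over the 3 pairs. The shift of Shmt2 minus Shmt1 was of opposite sign with KO libraries only (0.09), as was that of Mthfd2 minus Mthfd1 with WT libraries only (0.08).

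**Figure D3:**
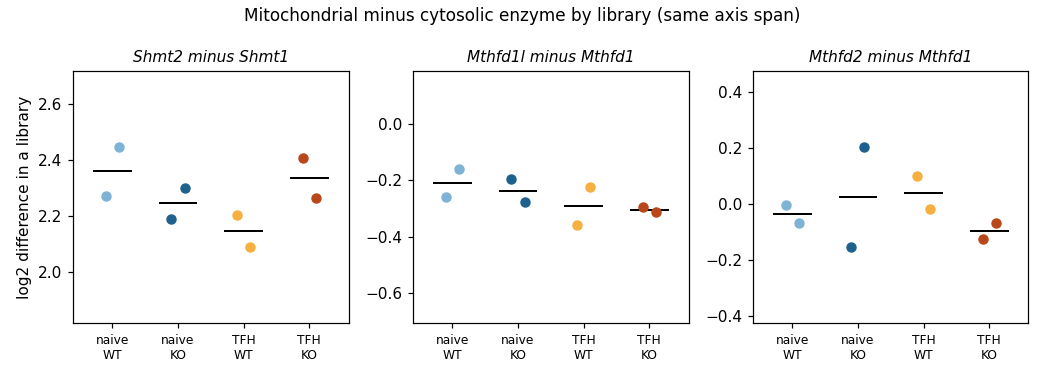
Log2 level of a mitochondrial enzyme gene minus that of its cytosolic counterpart (vertical axis, the same span in every panel) in each library of the 4 groups (horizontal axis), with bars at group means. The TFH-labelled and naive libraries overlap in all 3 panels.

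Genes of folate transport and of nucleotide synthesis had calls in both directions, as had all genes. Averaged over genotypes, the 16 measured genes of folate transport and interconversion had 2 that rose and 4 that fell, with a median of -0.14. Ggh, which trims the polyglutamate tail of folates, fell by 0.78 ± 0.14 (n = 4 against 4 libraries, limma adjusted p = 0.000895). Sfxn2 and Sfxn3, relatives of the mitochondrial serine transporter Sfxn1, fell by 0.63 ± 0.10 and 0.43 ± 0.08. Of 15 genes of thymidylate and purine synthesis, 3 rose and 3 fell, with a median of -0.04. Tyms, which makes thymidylate from a folate-bound carbon, rose by 0.69 ± 0.10 (limma adjusted p = 0.000317) and Impdh2, which commits purines to guanine nucleotides, by 0.28 ± 0.07. Gart and Ppat, enzymes of early purine synthesis, fell by 0.35 ± 0.07 and 0.28 ± 0.08. The background of these counts is the 18.3% of all genes called higher and 19.8% called lower.

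Genes that use serine, glycine and methionine also had calls in both directions, beside the same background of 18.3% higher and 19.8% lower. Whether their counts differ from that background was not tested. Of 11 measured genes of the methionine cycle and transsulfuration, 1 rose and 3 fell, with a median of -0.05. Ahcy, which clears S-adenosylhomocysteine, rose by 0.50 ± 0.08. Mtr, which remethylates homocysteine with methylfolate, fell by 0.55 ± 0.10, and Mat2b and Mat2a, subunits of the enzyme that makes S-adenosylmethionine, fell by 0.34 ± 0.08 and 0.24 ± 0.07. Of 13 measured genes of glycine cleavage and serine use, 2 rose and 2 fell, with a median of -0.06. Gcsh, the carrier protein of glycine cleavage, rose by 0.31 ± 0.10 and Srr, which makes D-serine, by 0.27 ± 0.10. Serinc3, a serine incorporator, fell by 0.75 ± 0.11 and Glyctk, a glycerate kinase, by 0.39 ± 0.11.

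The list of regulators also holds Asns, the gene of the enzyme asparagine synthetase. Of its 9 measured genes, 4 rose and none fell, where 18.3% of all genes were called higher and 19.8% lower. Atf5, Nfe2l2, Sesn2, Trib3 and Asns were not called. Atf4 rose by 1.34 ± 0.08 (n = 4 against 4 libraries, limma adjusted p = 5.08e-07) and Myc by 0.85 ± 0.10. Ddit3, which encodes a stress-induced partner of C/EBP factors, rose by 0.43 ± 0.10 and Eif2ak4, the kinase that senses uncharged transfer RNA, by 0.31 ± 0.07. Atf4 was 13.22 to 13.54 in naive libraries, 14.69 and 14.66 in TFH WT and 14.74 and 14.72 in TFH KO. KO minus WT in TFH-labelled cells was 0.05 ± 0.12 for Atf4, and its part in the Psat1 values was not tested. Of the 15 cell cycle genes, 12 rose and none fell, with a median of 0.95, beside the same shares of all genes. Pcna, the replication clamp, rose by 1.24 ± 0.08, and the replicative helicase genes Mcm5, Mcm4 and Mcm2 by 0.85 ± 0.10, 0.64 ± 0.08 and 0.36 ± 0.07.

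**Figure D4:**
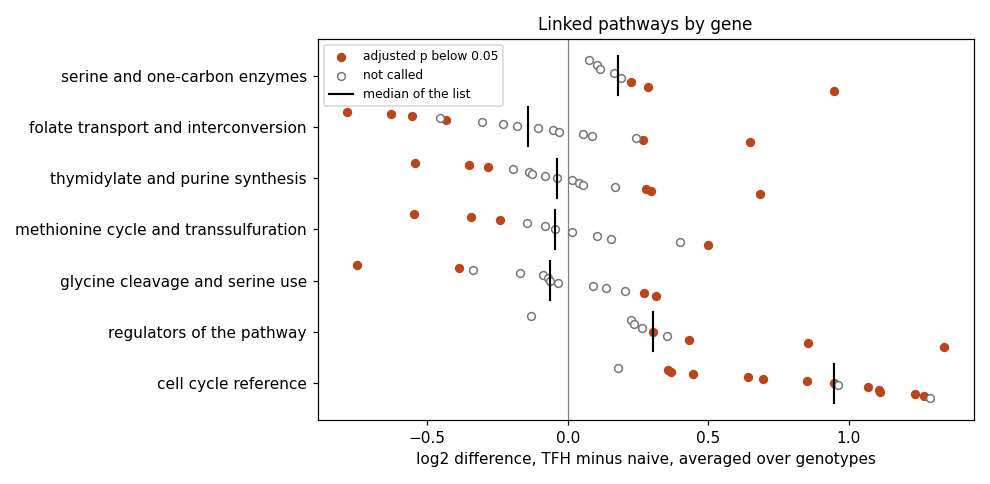
Log2 difference of TFH-labelled minus naive libraries averaged over genotypes (horizontal axis) for each measured gene of 7 lists (vertical axis), with filled points at an adjusted p below 0.05 and bars at list medians. The enzyme genes have a median of 0.18 and Psat1 the largest value among them, while the folate list has calls on both sides of 0.

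Likeness of pattern was measured as the root mean square difference between centred log2 profiles over the 8 libraries, against 13116 genes, and is a description with no test. The genes nearest to Psat1 were Rad51ap1, a DNA repair gene, at 0.08, and Cd200, a surface molecule gene of TFH cells, at 0.09. Cd200 rose by 1.44 ± 0.12 in WT and by 0.68 ± 0.12 in KO, against 1.37 and 0.52 for Psat1. These values come from the same 8 libraries by which Cd200 was picked, so their closeness follows from that choice. The nearest to Shmt1 was Pa2g4, which acts in ribosome formation, at 0.06, and the nearest to Shmt2 was Ubac1 at 0.03. Mthfd1 was nearest to Hspa9, the mitochondrial chaperone, at 0.04, and Mthfd2 to Slc25a4, the mitochondrial ADP/ATP carrier, at 0.06. Phgdh was nearest to Exosc2, Psph to Supt4b and Mthfd1l to Armc6, each at 0.04. The genes second in line were G6pc3 for Phgdh, Stx12 for Psph, Hnrnpab for Shmt1, Timm23 for Shmt2, Lama3 for Mthfd1, Serhl for Mthfd2 and Prpf3 for Mthfd1l. Among the members the closest pair was Mthfd1 and Mthfd1l at 0.06, and Mthfd1 ranked 20 among all genes by likeness to Mthfd1l. Psat1 was the most distant, at 0.36 from Shmt1, 0.47 from Phgdh and 0.50 from Psph, the last 2 being the other enzymes of serine synthesis. The profiles were centred but not scaled, and Psat1 had the widest range, 1.43 against 0.61 for Shmt1, the next. Its distance therefore includes the size of its changes. In the order of group means, Psat1, Shmt1 and Mthfd1 were alike.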

How the data were processed

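Gene expression was measured by single-end sequencing of 51 bp reads, per the labels' protocols. BWA and the build mm10 are named in the submitters' processing notes; not given in the sources used here are versions, read counting, annotation, filters and normalization. For each sample, the authors deposited log2 values of 14042 gene symbols, from 1.16 to 19.48. Above the lowest percentile the sorted values differed by at most 0.03 from the median library, as after quantile normalization, which fixes the total and hides depth.

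These log2 values, as the authors deposited them, entered limma 3.58.1 under R 4.3.3, with 1 mean per group, all 8 libraries, 4 residual degrees of freedom, and eBayes moderation with its trend and robust settings on. P-values were adjusted by Benjamini-Hochberg over all genes and called below 0.05. The fit was tested on simulated data. Pairs of enzymes were compared by exact permutation (scipy 1.17.1). Separate mice behind the replicates are not named in the labels, and the p-values then reflect only sample-to-sample spread that may be technical. Replicate numbers follow the order of deposit.

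The members and lists were chosen with earlier results of these data known. Named were all members, up to 4 called genes of each linked list by smallest p in the averaged comparison, or 2 where none was called, and the 2 genes of nearest profile to each member, leaving out predicted genes and antigen receptor segments; 1 gene that this rule names is not reported here. Promoters are from RefSeq, where all 8 members matched by symbol. The deleted gene C5ar1 was not analysed here. Alternatives were other moderation settings, the compared groups only, a level of log2 8, trimmed mean scaling, library weights and each of the 8 libraries left out in turn. Added after seeing the data were fits without replicate 2 of both TFH groups and with the summed B cell level as a covariate.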

Additional observations from a re-analysis of the deposited data

Results flagged for a closer look

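For 4 enzyme genes the KO libraries lay above the WT libraries among naive cells and below them among TFH-labelled cells, with no overlap in either, a pattern held by 3.2% of all 14042 genes. The interaction of genotype and label was -0.84 for Psat1, -0.49 for Shmt1, -0.37 for Phgdh and -0.26 for Mthfd1. In limma the interaction had adjusted p-values of 0.518 for Psat1 and 0.997 for each of the other 3, so the interaction did not pass the threshold for any of them. Between the Phgdh groups of TFH-labelled libraries the means differed by 0.05, and for Mthfd1 the naive groups adjoined at 11.67 and 11.68.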

How the results depend on the processing

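The direction of the Psat1 difference was the same in all alternatives of every comparison. Of 4 members called in WT, 2 were called without the trend and 1 without replicate 2 of both TFH groups; 6 were called with the level filter, library weights or B cell covariate, and 1 to 6 on leaving out 1 library. Of 1 in KO, 0 were called without the trend or with both of those libraries left out, and 0 to 1 with a library left out. Of 3 in the averaged comparison, 1 was called without replicate 2 of both TFH groups, and 1 to 3 with a library left out. Over all genes, 3694 calls in WT became 2104 and 2744 in KO became 1225 without replicate 2 of both TFH groups. With a library left out the counts ran from 1991 to 3726 in WT, 1399 to 2683 in KO, 0 to 2 for KO against WT in TFH, 7 to 17 in naive and 1 to 7 for the interaction. KO against WT in TFH had 1 call with the compared groups only, and the interaction 0 without the trend.

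Reversals concerned differences that were not called. For TFH against naive in KO, Mthfd1l was at 0.0095 with trimmed mean scaling and at 0.026 without replicate 2 of both TFH groups, where Psph was at 0.034 and Shmt1 at -0.029. With a library left out Mthfd1l ranged from -0.043 to 0.026, Mthfd2 from -0.27 to 0.14, Psph from -0.12 to 0.034 and Shmt1 from -0.029 to 0.12. For KO against WT in naive, Mthfd1l ranged from -0.045 to 0.22 and Mthfd2 from -0.031 to 0.38. For KO against WT in TFH, Psph was at 0.00075 with the B cell covariate and Shmt2 at -0.031 without replicate 2 of both groups; with a library left out they ranged from -0.19 to 0.11 and from -0.028 to 0.029. Shmt2 minus Shmt1 was 0.091 with KO libraries only and ranged from -0.12 to -0.01 with a library left out; Mthfd2 minus Mthfd1 was 0.076 with WT libraries only and ranged from -0.072 to 0.047. The cause of these changes was not tested. No paired analysis was run because the labels give no replicate numbers. Over all genes, TFH WT and TFH KO correlated at 0.992 between their replicates 1 and 0.993 between their replicates 2 (Pearson). Between the replicates of a group the correlation was 0.990 in TFH WT and 0.983 in TFH KO. Whether TFH-labelled libraries form pairs across genotypes is not stated and was not tested. Depth is unknown, so no counting error is given.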
